A study of Mus musculus with 12 samples.

Results

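The comparison was of BV-2 cells, an immortalised mouse microglial line, treated with lipopolysaccharide (LPS, a component of the outer membrane of Gram-negative bacteria) against untreated control cells of the same line. It took the 3 LPS and the 3 Control libraries, 6 of the 12 in the series. The other 6 libraries were of cells given nicotinamide mononucleotide (NMN, a precursor of NAD) alone or LPS with NMN. They were not compared here, and their own values are given beside those of some genes. They do enter each limma test, which took its estimate of the spread and its filter on low values from all 12 libraries. The dose of either agent and the length of treatment are not given in the sources used here. Total RNA had been extracted and sequenced. The labels do not tell whether replicates were grown as separate cultures. Each p-value thus reflects the scatter of the libraries in its test, which may be technical.

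For each library the deposited data are a catalogue of transcript events, without read counts, expression levels or sequencing depth. An event is a first exon, a last exon, a skipped exon, a retained intron or an exon end (the same exon with a shifted splice site) found in the transcripts of a gene. The 12 catalogues listed 14275 genes, and the 6 compared here listed 13658 genes and 106022 distinct events. A first or last exon is identified by its splice site. A skipped exon, a retained intron or an exon end enters a catalogue only where both forms were found, so its absence does not say which form was present. An event was called set apart when it was in all 3 libraries of either group and in none of the other. Both positions of a shifted exon end could be listed, and exact and approximate forms of an event counted separately. Several events can thus describe 1 place, and counts of events are not counts of separate places. The cell type in the labels is macroglia, whereas 13 of 15 microglia and macrophage markers, among them Aif1, Csf1r, Itgam and Tmem119, were listed in all 6 libraries. Of 7 astrocyte markers, 1 (Slc1a2) was listed in all 6 and 4 in none, and of 8 oligodendrocyte markers 3 (Mbp and Cnp among them) were listed in all 6. Of 7 neuron markers, 2 were listed in all 6 and 4 in none. Of 8 T and B cell markers none was listed in all 6 and 4 were in no library. Of 6 fibroblast markers none was listed in all 6 and 3 were in no library of the 6. The T cell gene Cd4 was listed in each Control library and in no LPS library, and the fibroblast gene Pdgfra in each LPS library and in no Control library. The part of such transcripts in the results was not tested.

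LPS is sensed by Toll-like receptor 4, which signals through NF-kB to cytokine genes and through interferon regulatory factors to type I interferon, whose autocrine action induces a large set of antiviral genes. In macrophages and microglia such genes can be switched on from silence, and genes that are already active can change their promoter, their polyadenylation site or the exons they join. Alternative first exons change where a transcript begins, alternative last exons change its 3′ end, and skipped exons or retained introns change the coding frame or add intron sequence to the RNA.

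The LPS catalogues were of the same size as the Control catalogues within the spread of the libraries. LPS libraries 1, 2 and 3 listed 20190, 19897 and 20292 first exons, against 20739, 20005 and 19512 in Control libraries 1, 2 and 3. Skipped exons numbered 8588, 8301 and 8577 in the LPS libraries, against 10028, 9060 and 8313 in the Control libraries. The LPS libraries averaged 8489 ± 163 skipped exons and the Control libraries 9134 ± 860 (SD, n = 3 each), a difference of -7.06% (exact permutation test, two-sided, p = 0.3, where 0.1 is the smallest p that 3 against 3 allows). The groups overlapped in all 5 classes and in the number of genes listed, with exact permutation p-values of 0.3 to 1. Control 1 was the largest catalogue in every class and Control 3 the smallest of the Control libraries.

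**Figure D1:**
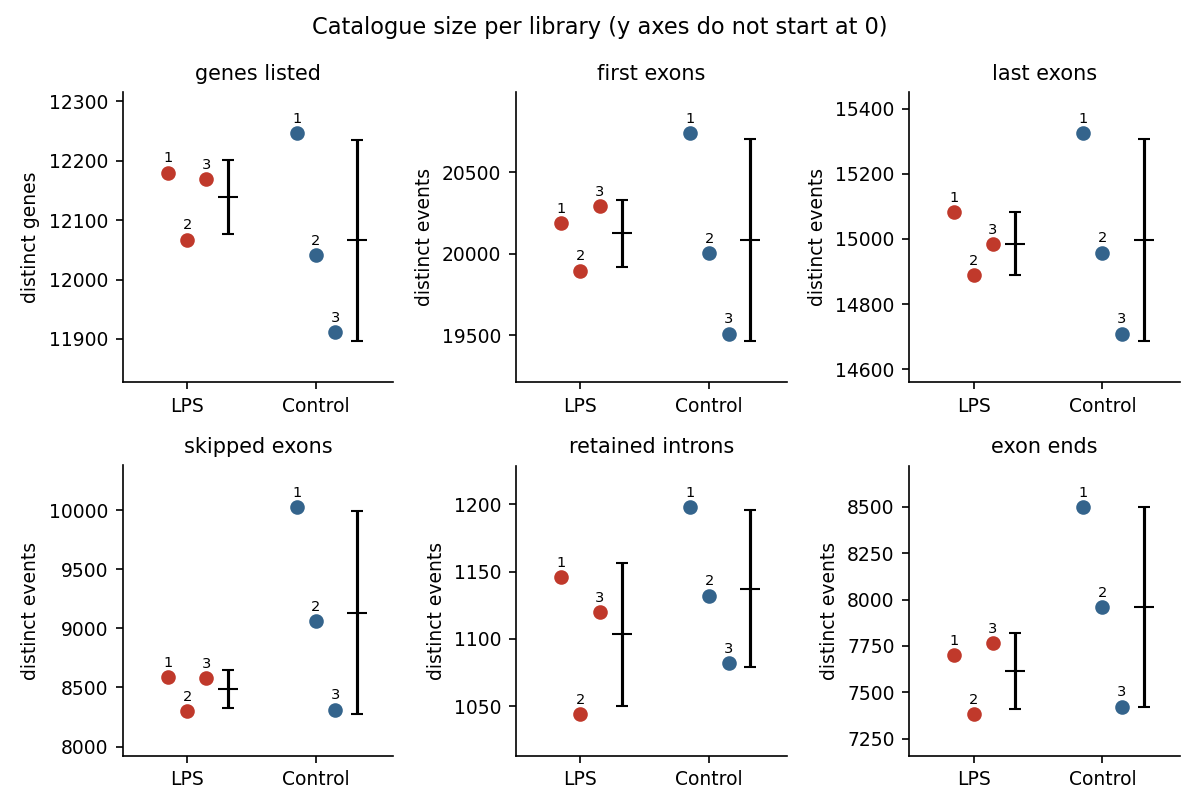
Distinct genes and distinct events of each class per library (y axes, which do not start at 0), with LPS left of Control. Numbers mark the replicate, and the black bar is the mean with its SD over 3 libraries. The Control libraries spread more widely than the LPS libraries in each panel, and the groups overlap in each panel.

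The genes themselves were set apart in both directions. Of 13658 genes, 65 were listed in each of the LPS libraries and in none of the Control ones (0.476%), and 38 in each of the Control libraries and in none of the LPS ones (0.278%). The LPS-only genes included the cytokines Il12b (a subunit of interleukin 12) and Il36a, the matrix protease Mmp3, the acute-phase serpin Serpina3f, and the interferon-induced Ifit3b, Ifit1bl1, Zbp1 and Slfn1, of which Zbp1 and Slfn1 were chosen after their values were seen. Il12b had 1, 1 and 1 first exons in the LPS libraries, against 0, 0 and 0 in the Control libraries, and the same numbers of last exons. Among the Control-only genes were the complement gene C1qa, the coagulation factor gene F13a1 and Cd4, of which C1qa and F13a1 were chosen after their values were seen. C1qa had 0, 0 and 0 events of any class in the LPS libraries, against 2, 2 and 2 in the Control libraries, and did not pass the limma test (Benjamini-Hochberg adjusted p = 0.292).

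Events set apart were a small share of each class, and the balance of directions differed between classes. Of 38365 first exons found in any of the 6 libraries, 255 were LPS only (0.665%) and 189 Control only (0.493%). Of 27337 last exons, 177 were LPS only (0.647%) and 137 Control only (0.501%). Skipped exons went the other way, with 107 LPS only (0.553%) and 175 Control only (0.904%) of 19353. Of 3056 retained introns, 13 were LPS only (0.425%) and 28 Control only (0.916%), and of 17911 exon ends, 81 were LPS only (0.452%) and 121 Control only (0.676%). The rule takes these events from the same catalogues it describes, so the counts carry no test.

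Most set-apart events lay in genes that every library listed. In genes listed in all 6 libraries there were 191 LPS-only and 163 Control-only first exons, 109 and 110 last exons, 95 and 175 skipped exons, 9 and 28 retained introns, and 79 and 121 exon ends. In the 65 genes that were themselves LPS only lay 32 LPS-only first exons and 28 LPS-only last exons. In the 38 Control-only genes lay 13 Control-only first exons and 10 Control-only last exons. These are fewer than the genes, so many such genes had no first or last exon that recurred in all 3 libraries. In the last exons, with 109 and 110 in genes listed in all 6 libraries, the excess of LPS-only events was in genes that some library did not list. The larger number of Control-only skipped exons moved with Control 1. With Control 1 and any LPS library left out, 488 to 514 skipped exons were in both remaining LPS libraries alone and 551 to 570 in both remaining Control libraries alone. With Control 3 left out instead, the counts were 383 to 405 and 753 to 822, so the skew kept its direction and changed in size. First exons kept the larger LPS-only count without Control 1 (821 to 868 LPS only against 695 to 732 Control only) and reversed it without Control 3 (754 to 773 LPS only against 788 to 818 Control only). Last exons did so too, with 547 to 581 LPS only against 511 to 549 Control only without Control 1, and 532 to 575 LPS only against 585 to 613 Control only without Control 3. Without Control 2, more last exons were LPS only in 1 of 3 such comparisons. More retained introns were LPS only in 1 of 3 comparisons without Control 1 and in 1 of 3 without Control 2. More exon ends were Control only in every such comparison.

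**Figure D2:**
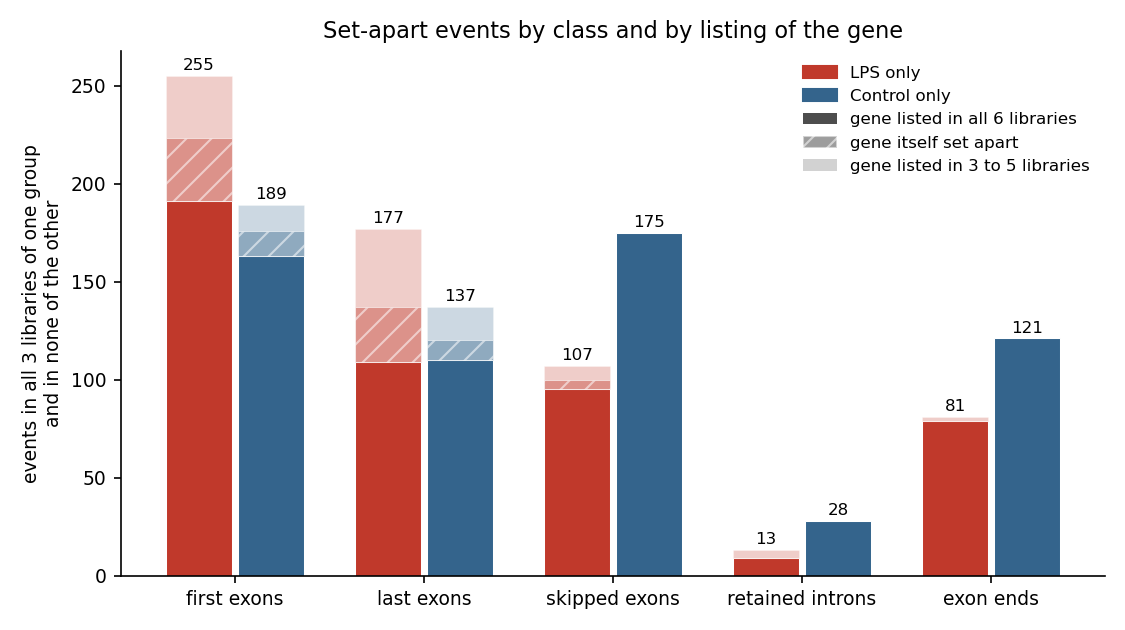
Number of events of each class found in all 3 libraries of a group and in none of the other (y axis), with LPS only left of Control only. Full colour marks genes listed in all 6 libraries, hatching genes that are themselves set apart, and pale colour genes listed in 3 to 5 libraries. With all 6 libraries, first and last exons were more often LPS only, a direction that reverses without Control 3. Skipped exons, retained introns and exon ends were more often Control only. With 1 library of each group left out, retained introns reversed in 1 of 3 comparisons without Control 1 and in 1 of 3 without Control 2.

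First exons are the starts of transcripts. The number of distinct first exons per gene was tested with limma on log2(events + 1) over all 12 libraries, with p-values adjusted over the 9426 genes tested. It rose in 16 genes (0.17%) and fell in 5 (0.053%). The genes that rose included cytokines (Il36a and Csf3, the granulocyte colony-stimulating factor), interferon-induced genes (Ifit1bl1, Mx2 and Slfn5), the apolipoprotein L genes Apol9a and Apol9b, and Upp1, which cleaves uridine. The genes that fell included Zfp568 (a zinc-finger gene), Cnot8 (a subunit of the CCR4-NOT deadenylase), Ebag9 and Rps12 (a protein of the small ribosomal subunit).

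Ntng2, which encodes netrin G2, a membrane-anchored netrin of neurons, had the largest difference. It had 5, 6 and 6 first exons in the LPS libraries, against 0, 0 and 0 in the Control libraries, a difference of 2.73 ± 0.21 (SE) on the log2(events + 1) scale (limma, adjusted p = 2.12e-10). In the NMN libraries it had 5, 9 and 6, and in the LPS+NMN libraries 5, 7 and 6. The gene lies at chr2:29194541-29253005 on the minus strand (GRCm38, GENCODE M21), and every NMN, LPS and LPS+NMN library listed it. Ntng2 was also past the test in last exons (3, 3 and 3 in LPS, against 0, 0 and 0 in Control), in skipped exons (7, 6 and 4 against 0, 0 and 0) and in retained introns (1, 7 and 6 against 0, 0 and 0).

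Apol9b had 3, 3 and 3 first exons in the LPS libraries, against 0, 0 and 0 in the Control libraries (limma, adjusted p = 4.36e-06). Its close copy Apol9a had 4, 4 and 3 in LPS, against 1, 0 and 1 in Control (limma, adjusted p = 0.000471). The 2 genes are similar enough for reads to be shared between them, so how the events divide between them is uncertain. Il36a had 3, 2 and 2 in LPS, against 0, 0 and 0 in Control (limma, adjusted p = 0.000116). Mx2, an interferon-induced GTPase, had 5, 3 and 3 in LPS, against 1, 1 and 1 in Control (limma, adjusted p = 0.00686), and lost its call without LPS 1 (0.101). Slfn5, an interferon-induced Schlafen gene, had 2, 2 and 2 in LPS, against 0, 0 and 1 in Control (limma, adjusted p = 0.0138), and lost it without any LPS library, Control 1 or Control 2 (up to 0.175). In each of these genes the LPS libraries were all above the Control libraries.

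Ntng2, Apol9a, Apol9b, Il36a and Urah kept an adjusted p under 0.05 whichever of the 6 libraries was left out (limma, at most 0.0103). The other 16 of the 21 genes lost their call without at least 1 library, with the highest adjusted p of each between 0.0596 and 0.325. Taf3, a subunit of the basal transcription factor TFIID, had 4, 3 and 4 first exons in LPS, against 1, 1 and 1 in Control, 1, 1 and 3 in NMN, and 3, 4 and 3 in LPS+NMN libraries. Its adjusted p was 0.0163 (limma), and up to 0.127 without LPS 1, LPS 3, Control 1 or Control 3. Both LPS-only first exons of Taf3 began inside the gene, 97121 and 129485 nt downstream of the only first exon found in Control.

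Where a gene is switched on by interferon, its promoter often carries an interferon-stimulated response element, which the factors IRF3, IRF7 and ISGF3 bind. Its core, GAAA, then any 2 bases, then GAAA, was searched on both strands of the 250 bases before each gene start in the RefSeq promoter table (GRCm38.p6), where 936 of 27025 genes (3.46%) held it. Of the 238 genes with an LPS-only first exon, 190 were in the table and 16 (8.42%) held the letters, and of 147 matched genes with a Control-only first exon 5 (3.40%) did. In the type I interferon response list 23 of 43 matched genes (53.5%) held it, and in the list of NF-kB cytokines and chemokines none of 20. The bases before the start of 3 interferon-induced genes that were LPS only (Ifit3b and Ifit1bl1) or rose in first exons (Slfn5) are shown 5′ to 3′ with the matches in capitals, Ifit3b at chr19:34607707-34607956 on the plus strand, Slfn5 at chr11:82951852-82952101 on the plus strand and Ifit1bl1 at chr19:34601969-34602218 on the minus strand.
Ifit3b: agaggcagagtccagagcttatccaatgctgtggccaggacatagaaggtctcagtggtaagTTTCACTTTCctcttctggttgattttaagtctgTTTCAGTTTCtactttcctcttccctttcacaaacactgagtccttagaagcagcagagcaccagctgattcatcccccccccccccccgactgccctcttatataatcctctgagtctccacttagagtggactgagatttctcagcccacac
Slfn5: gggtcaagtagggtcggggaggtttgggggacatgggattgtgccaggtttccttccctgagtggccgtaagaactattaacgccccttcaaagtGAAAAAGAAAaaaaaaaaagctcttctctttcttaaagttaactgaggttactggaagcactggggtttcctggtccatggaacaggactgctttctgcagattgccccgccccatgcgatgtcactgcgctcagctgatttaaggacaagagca
Ifit1bl1: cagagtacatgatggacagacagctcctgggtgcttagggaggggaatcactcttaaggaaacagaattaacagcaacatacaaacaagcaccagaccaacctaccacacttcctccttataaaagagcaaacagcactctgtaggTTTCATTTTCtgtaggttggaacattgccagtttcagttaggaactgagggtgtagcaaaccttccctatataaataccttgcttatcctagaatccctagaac
Ifit3b held the letters at 2 places, both matching on the opposite strand, where the core reads as TTTC, any 2 bases and TTTC, and each of the others at 1. Irf7, Ifi44 and Ntng2 held none in their window. These windows belong to annotated starts, which were not matched to the first exons in the catalogues.

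The type I interferon response list is a set of 56 genes induced by interferon, chosen with earlier results of these data known. Of these, 10 genes had an LPS-only first exon (Gbp2, Gbp3, Ifi44, Ifit3b, Irf7, Isg20, Mx2, Rtp4, Slfn5 and Trim30a) and 1 a Control-only first exon (Rtp4). Over all 13658 genes, 238 had an LPS-only and 182 a Control-only first exon. Of 34 members tested in this class, 3 rose (Ifit1bl1, Mx2 and Slfn5), against 0.17% of all genes tested, and none fell. The median difference was 0.19 over the members, against 0 over all genes tested. Irf7, the interferon regulatory factor that amplifies the response, had 2, 2 and 2 first exons in LPS, against 1, 1 and 1 in Control, and its added first exon lay 767 nt downstream of the only Control one. Isg20, an interferon-induced exonuclease, had 2, 3 and 2 in LPS, against 1, 1 and 1 in Control, with splice sites only 10 nt apart. In the Toll-like receptor pathway, Tnfaip3, the deubiquitinase that limits NF-kB signalling, was named for its LPS-only first exon. It had 2, 2 and 2 first exons in LPS, against 1, 1 and 1 in Control. The anchor Tlr4 had 1, 2 and 1 in LPS, against 1, 1 and 1 in Control. Of 32 tested members of the Toll-like receptor and NF-kB signalling list none passed the test for first exons, where 0.17% of all genes rose and 0.053% fell.

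LPS-only first exons lay farther from any Control first exon than the reverse. In genes listed in all 6 libraries, the 191 LPS-only first exons were a median of 2226 nt from the nearest first exon of any Control library (quartiles 397.5 and 9464.5 nt). The 163 Control-only first exons were a median of 870 nt from the nearest first exon of any LPS library (quartiles 200.5 and 4977.5 nt). Of the LPS-only first exons 62.3% were more than 1000 nt away, against 46.0% of the Control-only ones. Downstream of all first exons of the other group lay 40.3% of the LPS-only and 37.4% of the Control-only first exons. Without those listed on the strand opposite to the annotated gene, the medians were 2160 and 804 nt. The difference between the medians was not tested, since the events are not replicates.

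**Figure D3:**
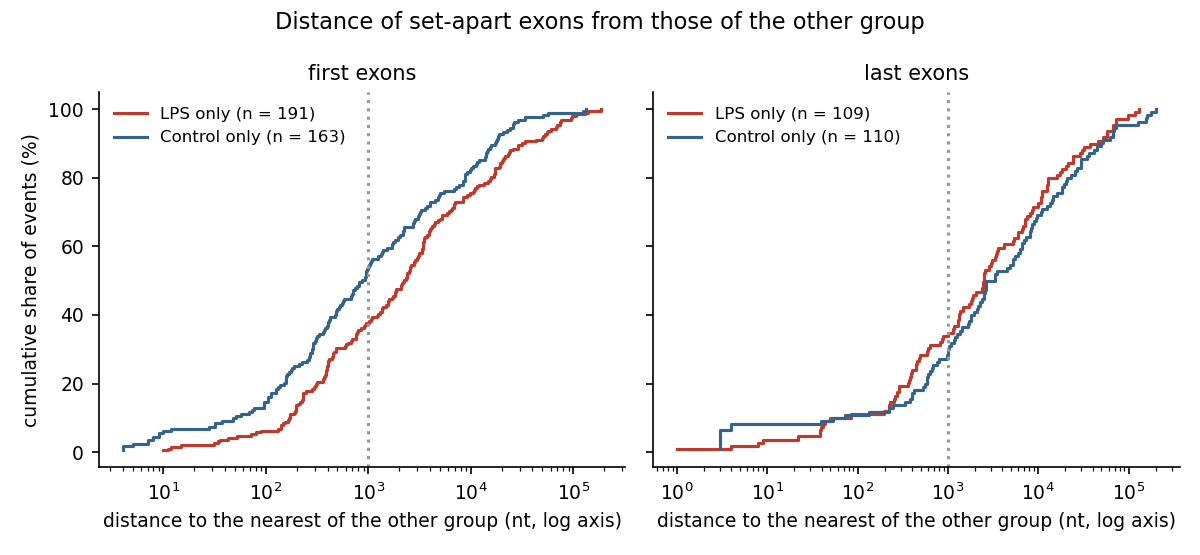
Cumulative share of set-apart first exons and last exons (y axis) against the distance from their splice site to the nearest one of the other group in the same gene (x axis, log scale), for genes listed in all 6 libraries. The dotted line marks 1000 nt. The LPS-only curve of first exons runs to the right of the Control-only curve, with medians of 2226 and 870 nt, while the curves of last exons cross.

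Some genes had first exons set apart in both directions, which does not show that 1 replaced the other. Over all genes, 238 had an LPS-only and 182 a Control-only first exon. Of the 11024 genes listed in all 6 libraries, 18 had both an LPS-only and a Control-only first exon. In 14 of the 18 no such exon lay on the strand opposite to the annotated gene. The 14 included Rtp4, an interferon-induced chaperone of receptors, and Cybb, the catalytic subunit of the phagocyte NADPH oxidase, both chosen after their values were seen. The LPS-only first exon of Rtp4 lay 1012 nt upstream of the Control-only one. The LPS-only first exon of Cybb lay 1404 nt upstream of any Control first exon. Rps12 had 1, 1 and 1 first exons in the LPS libraries, against 3, 3 and 3 in the Control libraries (limma, adjusted p = 0.0157, and up to 0.08 without LPS 1, LPS 3, Control 1 or Control 3). The 2 Control-only first exons of Rps12 lay 162 and 531 nt downstream of the one found with LPS. All NMN and LPS+NMN libraries had 3 first exons in Rps12.

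**Figure D4:**
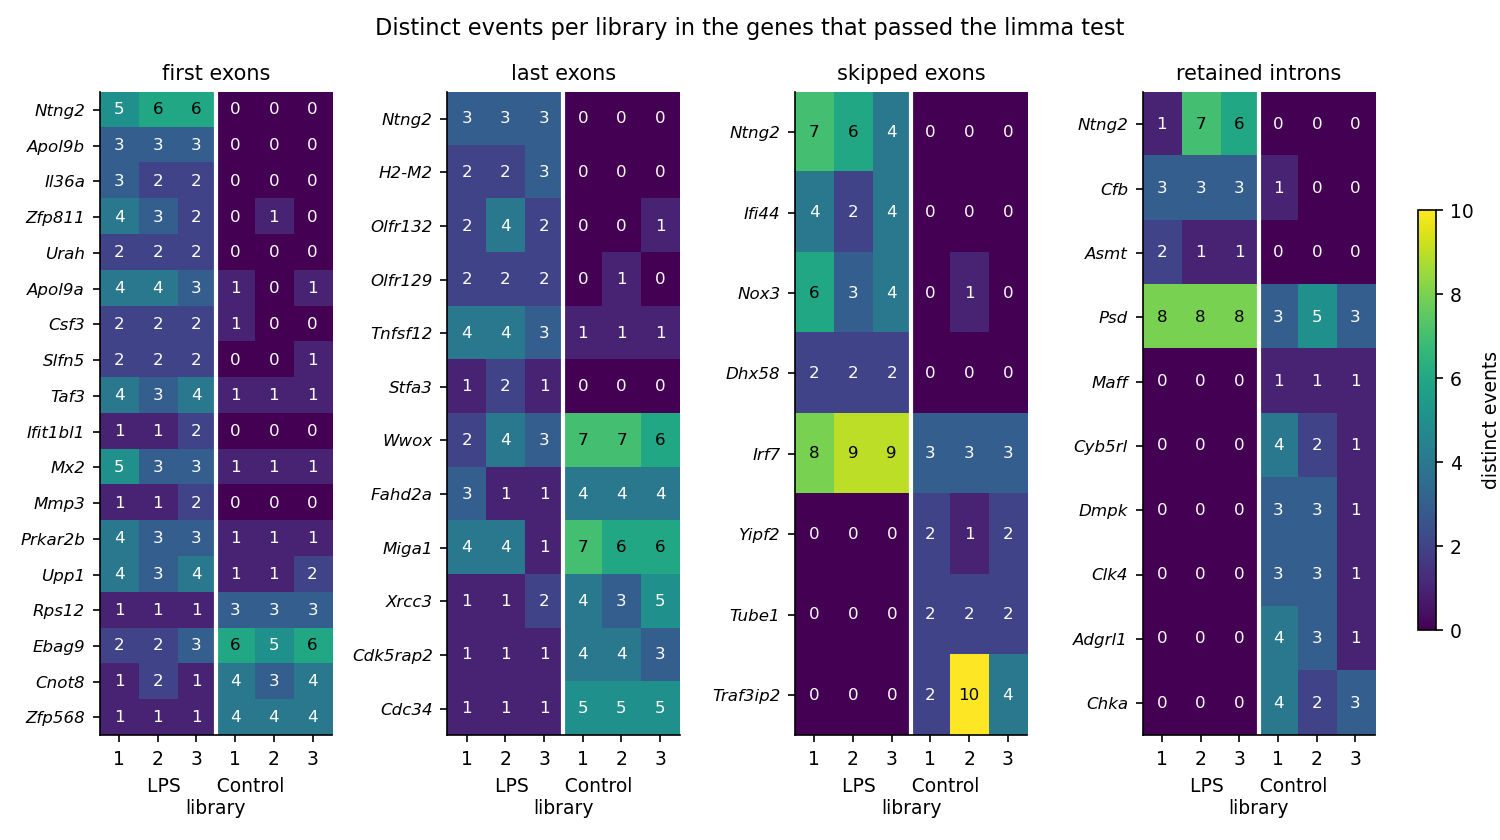
Distinct events per library (number and colour) in the genes that passed the limma test in each class and whose LPS and Control libraries do not overlap, with LPS left of Control, the genes running from most raised to most lowered. Predicted genes and 1 gene not reported here are left out. Ntng2 leads first exons, last exons, skipped exons and retained introns, and the 6 lowered retained-intron genes shown are at 0 in all 3 LPS libraries.

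Last exons set the 3′ end of a transcript. Their number rose in 12 genes (0.198%) and fell in 8 (0.132%) of 6056 tested (limma, Benjamini-Hochberg). The genes that rose with groups apart were Ntng2, H2-M2 (a nonclassical MHC class I gene), the olfactory receptor genes Olfr132 and Olfr129, Tnfsf12 (the cytokine TWEAK) and Stfa3 (a stefin, an inhibitor of cysteine proteases). Cdc34, a ubiquitin-conjugating enzyme of the cell cycle, fell most, and Cdk5rap2 (a centrosome protein), Xrcc3 (a DNA repair protein), Miga1, Fahd2a and Wwox fell too. In 8 of the 20 genes the LPS and Control libraries overlapped, among them Lta (lymphotoxin alpha), chosen after its values were seen.

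H2-M2 had 2, 2 and 3 last exons in the LPS libraries, against 0, 0 and 0 in the Control libraries (limma, adjusted p = 5.96e-07). It lies on chromosome 17, as do Olfr129 and Olfr132, with H2-M2 at chr17:37480851-37483552, Olfr129 at chr17:38050857-38060079 and Olfr132 at chr17:38129863-38134526, all on the minus strand (GRCm38, GENCODE M21). Olfr132 had 2, 4 and 2 in LPS, against 0, 0 and 1 in Control (limma, adjusted p = 7.74e-05). Genes of these families have close copies, so the assignment of events among them is uncertain. Olfr129 lost its call without Control 1 or Control 3 (up to 0.129), and Stfa3 without LPS 2 (0.41).

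Tnfsf12 had 4, 4 and 3 last exons in LPS, against 1, 1 and 1 in Control (limma, adjusted p = 0.00417), 1, 3 and 1 in NMN, and 1, 3 and 2 in LPS+NMN libraries. Its LPS-only last exons lay 285 and 5457 nt upstream of any found in Control. Cdc34 had 1, 1 and 1 in LPS, against 5, 5 and 5 in Control (limma, adjusted p = 1.03e-05), 1, 5 and 1 in NMN, and 1, 1 and 1 in LPS+NMN libraries. Of the Control-only last exons of Cdc34, 1 lay 53 nt upstream of the one found with LPS and 3 lay 2616, 2620 and 2623 nt downstream, the last 3 within a few nt of each other. The counts are the same in each library of both groups, without spread within a group. Cdk5rap2 had 1, 1 and 1 in LPS, against 4, 4 and 3 in Control (limma, adjusted p = 0.00406), and lost its call without Control 1 (0.0583). With groups apart, 5 genes kept their call whichever library was left out, namely Cdc34, H2-M2, Ntng2, Olfr132 and Tnfsf12. Lta, whose groups overlap, also kept it. Without trend and robust moderation, 18 of the 20 calls were lost, among them Cdc34, Olfr132 and Tnfsf12 (limma, adjusted p of 0.0813, 0.232 and 0.128), and H2-M2 and Ntng2 kept theirs. With 3 events required in 3 libraries, Cdc34, Olfr132 and Tnfsf12 also lost their call (0.142, 0.244 and 0.212), and H2-M2 was not tested. The other 14 lost it without at least 1 library (highest adjusted p of each 0.0583 to 0.522).

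Slc7a11, the cystine transporter that feeds glutathione synthesis and restrains ferroptosis, had 2, 3 and 2 last exons in LPS, against 1, 1 and 1 in Control (limma, adjusted p = 0.302, not past the threshold). It had 1 in every NMN and LPS+NMN library. The 2 LPS-only last exons lay 72114 and 117780 nt upstream of any found in Control. Slc3a2, the partner chain of Slc7a11, had an LPS-only last exon on the minus strand and a Control-only one on the plus strand. In the list of 32 ferroptosis and iron genes none of 11 tested passed for last exons, where 0.198% of all genes rose and 0.132% fell. The anchors Gpx4, the lipid peroxidase that blocks ferroptosis, and Acsl4, which supplies its lipid substrates, had no set-apart last exon.

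Strand set a limit on last exons in particular. Of LPS-only last exons 19 (11.2%) were listed on the strand opposite to the annotated gene, against 7 (5.38%) of the Control-only ones and 10.5% of all last exons. Without them 158 were LPS only and 130 Control only. For first exons the numbers were 20 (8.03%) LPS only and 9 (4.92%) Control only, with 235 and 180 without them. The part of antisense or neighbouring transcripts in these events was not tested.

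Distances gave a different picture for last exons than for first exons. The 109 LPS-only last exons in genes listed in all 6 libraries lay a median of 2482 nt from the nearest Control last exon, against 2963.5 nt from the nearest LPS last exon for the 110 Control-only ones. Without those on the opposite strand the medians were 1819 nt for LPS-only and 3304 nt for Control-only last exons. More than 1000 nt away were 66.1% of the LPS-only and 71.8% of the Control-only last exons. In 21 of the 11024 genes listed in all 6 libraries last exons were set apart in both directions. In 13 of the 21 no such exon lay on the opposite strand. Nras, a small GTPase chosen after its values were seen, was among the 13, with its LPS-only last exon 1784 nt upstream of the Control-only one. In Rps12 the LPS-only last exon lay 404 nt upstream of the Control-only one.

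Skipped exons changed in few genes, and 3 of the 5 that rose belong to the antiviral response. Their number rose in 5 of 5159 genes tested (0.0969%) and fell in 3 (0.0582%) (limma, Benjamini-Hochberg). Irf7, Ifi44 (an interferon-induced protein) and Dhx58 (LGP2, a helicase of the RIG-I family that senses viral RNA) rose, with Ntng2 and Nox3, an NADPH oxidase. Traf3ip2 (Act1, the adaptor of the interleukin 17 receptor), Tube1 (epsilon tubulin) and Yipf2 (a Golgi membrane protein) fell.

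Exons of Irf7, Ifi44, Dhx58 and Tube1, which passed the test, and of Ewsr1 and Mark3, which did not, are shown as examples. For each, an event that skips it was listed in all 3 libraries of 1 group and in none of the other. For exon 10 of Ewsr1 only the approximate form of the event was set apart. Other events that skip the same exon were matched separately and may be in the other group. The exon is in capitals, with 15 bases of each neighbouring exon in lower case, 5′ to 3′, from GENCODE M21 transcripts (GRCm38). The catalogues' exons were matched to these transcripts by gene structure and exon length. Those with an LPS-only event were exon 5 of 10 of Irf7 (59 nt, chr7:141264725-141264783, minus strand), exon 6 of 10 in its shorter form (67 nt, chr7:141264493-141264559), exon 7 of 8 of Ifi44 (101 nt, chr3:151738223-151738323, minus strand) and exon 4 (196 nt, chr3:151745793-151745988), exon 11 of 13 of Dhx58 (191 nt, chr11:100696976-100697166, minus strand) and exons 9 and 10 of 17 of Ewsr1 (35 nt, chr11:5079485-5079519, and 33 nt, chr11:5078920-5078952, minus strand).
Irf7 exon 5: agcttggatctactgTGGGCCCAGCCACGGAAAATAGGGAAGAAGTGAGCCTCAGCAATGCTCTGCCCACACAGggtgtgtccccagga
Irf7 exon 6, short form: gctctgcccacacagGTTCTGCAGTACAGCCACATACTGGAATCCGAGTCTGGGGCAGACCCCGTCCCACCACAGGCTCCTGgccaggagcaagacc
Ifi44 exon 7: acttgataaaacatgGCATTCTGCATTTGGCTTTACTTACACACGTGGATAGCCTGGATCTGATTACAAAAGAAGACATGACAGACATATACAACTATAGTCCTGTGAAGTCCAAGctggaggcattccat
Ifi44 exon 4: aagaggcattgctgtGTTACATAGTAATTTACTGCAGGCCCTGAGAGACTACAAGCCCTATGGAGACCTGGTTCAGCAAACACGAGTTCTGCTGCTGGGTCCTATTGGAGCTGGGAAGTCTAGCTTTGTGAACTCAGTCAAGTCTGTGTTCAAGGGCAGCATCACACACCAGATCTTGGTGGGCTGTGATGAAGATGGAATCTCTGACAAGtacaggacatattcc
Dhx58 exon 11: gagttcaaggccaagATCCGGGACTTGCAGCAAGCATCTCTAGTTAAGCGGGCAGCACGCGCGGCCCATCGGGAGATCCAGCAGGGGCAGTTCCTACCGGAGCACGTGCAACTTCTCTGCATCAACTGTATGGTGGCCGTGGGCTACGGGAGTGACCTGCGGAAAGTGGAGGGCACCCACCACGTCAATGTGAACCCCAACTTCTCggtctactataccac
Ewsr1 exon 9: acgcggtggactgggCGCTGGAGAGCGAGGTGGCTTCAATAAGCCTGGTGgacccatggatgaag
Ewsr1 exon 10: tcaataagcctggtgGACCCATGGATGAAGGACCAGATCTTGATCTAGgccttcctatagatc
Those with a Control-only event were exon 16 of 18 of Mark3 (27 nt, chr12:111651958-111651984, plus strand) and exon 8 of 12 of Tube1 (176 nt, chr10:39144756-39144931, plus strand).
Mark3 exon 16: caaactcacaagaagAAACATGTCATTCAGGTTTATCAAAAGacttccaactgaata
Tube1 exon 8: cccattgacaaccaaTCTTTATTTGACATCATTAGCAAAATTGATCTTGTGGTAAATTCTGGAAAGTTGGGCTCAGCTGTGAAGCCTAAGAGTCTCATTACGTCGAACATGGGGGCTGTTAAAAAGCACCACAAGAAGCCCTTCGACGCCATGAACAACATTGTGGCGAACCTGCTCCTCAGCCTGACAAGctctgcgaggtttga
Only Ewsr1 exon 10 and Mark3 exon 16 have a length that is a multiple of 3, so skipping any of the other 7 shifts the reading frame.

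Irf7 had 8, 9 and 9 skipped exons in the LPS libraries, against 3, 3 and 3 in the Control libraries, a difference of 1.27 ± 0.18 (SE) on the log2(events + 1) scale (limma, adjusted p = 0.0121). It had 9, 9 and 8 in NMN and 9, 9 and 9 in LPS+NMN libraries. Of its skipped-exon events 5 were LPS only, the most of any gene listed in all 6 libraries, and the call was lost without any LPS library, Control 1 or Control 3 (up to 0.0817). The 5 include a short and a long form of exon 6, of 67 and 163 nt. Irf7 had 1 last exon in every library of both groups.

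Ifi44 had 4, 2 and 4 in LPS, against 0, 0 and 0 in Control (limma, adjusted p = 0.0141), lost without LPS 1, LPS 3, Control 1 or Control 3 (up to 0.113). Dhx58 had 2, 2 and 2 in LPS, against 0, 0 and 0 in Control (limma, adjusted p = 0.0403), lost without any 1 of the 6 libraries (up to 0.197). In the other direction Tube1 had 0, 0 and 0 in LPS, against 2, 2 and 2 in Control (limma, adjusted p = 0.0333), also lost without any 1 (up to 0.187), and its Control events include the exact and the approximate form of skipping exon 8. Ntng2 alone kept its skipped-exon call whichever library was left out (at most 0.0299). With the exact and approximate forms of an event counted once, the calls of Traf3ip2, Tube1 and Yipf2, all 3 that fell, were lost (limma, adjusted p of 0.0724, 0.286 and 0.286).

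Genes with several set-apart skipped exons did not always pass the test. Ewsr1, an RNA-binding protein of the FET family, had 5, 5 and 5 skipped exons in LPS, against 2, 2 and 3 in Control (limma, adjusted p = 0.249), and 3 of them were LPS only. Of the 3, 2 are forms of the same exon, of 35 and 38 nt. Slfn4, an interferon-induced Schlafen gene, had 5, 9 and 5 in LPS, against 0, 3 and 0 in Control (limma, adjusted p = 0.205). Both genes had all LPS libraries above all Control libraries. Cul3, the scaffold of a ubiquitin ligase, had 3, 3 and 2 in LPS, against 8, 6 and 5 in Control (limma, adjusted p = 0.2). Gng12, a G protein gamma subunit, had 2, 2 and 2 in LPS, against 5, 5 and 5 in Control (limma, adjusted p = 0.264). Cul3 and Gng12 each had 3 Control-only skipped-exon events, and their groups did not overlap. In Cul3, 2 of the 3 are the exact and the approximate form of skipping the same exon.

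As a class, set-apart skipped exons resembled all skipped exons in length. The 92 LPS-only events of a single exon had a median length of 111 nt, the 150 Control-only ones 115 nt, and all 15843 single-exon events 113 nt. A multiple of 3 was the length of 35.9% of the LPS-only, 42.0% of the Control-only and 42.2% of all of them, against 49.5% of the 3077 found in all 6 libraries. An annotated exon matched 72.8% of the LPS-only and 83.3% of the Control-only ones, and 94.5% of those in all 6 libraries.

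Retained introns fell in more genes than they rose. Of 784 genes tested, 4 rose (0.51%) and 7 fell (0.893%) (limma, Benjamini-Hochberg), and all 11 lost their call without at least 1 library (highest adjusted p of each 0.183 to 0.247). Cfb, complement factor B of the alternative pathway, rose, with Ntng2, Asmt and Psd. Chka (choline kinase alpha), Adgrl1 (latrophilin 1), Clk4 (a kinase of SR splicing factors), Dmpk, Cyb5rl and Maff (a small Maf transcription factor) were among those that fell, and each was at 0 in all 3 LPS libraries. With the exact and approximate forms of an event counted once, 10 of the 11 calls were lost (limma, adjusted p of 0.0653 to 0.154), and Ntng2 kept its own.

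Cfb had 3, 3 and 3 retained introns in LPS, against 1, 0 and 0 in Control (limma, adjusted p = 0.0436), 2, 2 and 3 in NMN, and 2, 2 and 1 in LPS+NMN libraries. All 3 of its LPS retained introns were absent from every Control library, and they describe 1 place, introns of 74 and 58 nt that share an end, the longer listed in an exact and an approximate form. Clk4 had 0, 0 and 0 in LPS, against 3, 3 and 1 in Control (limma, adjusted p = 0.0436), and 0 in every NMN and LPS+NMN library. Chka had 0, 0 and 0 in LPS, against 4, 2 and 3 in Control (limma, adjusted p = 0.0438). Cfb lost its call without any LPS library, Control 2 or Control 3, Clk4 without any LPS library, Control 1 or Control 2, and Chka without any of the 6 (up to 0.183, 0.183 and 0.208). Psd had 8, 8 and 8 in LPS, against 3, 5 and 3 in Control (limma, adjusted p = 0.0436), lost without any LPS library, Control 1 or Control 3 (up to 0.203). A retained intron is listed only beside its spliced form, so a count of 0 does not say that the intron was spliced out.

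The 13 LPS-only retained introns had a median length of 250 nt and the 28 Control-only ones 266 nt, against 376 nt for all 3056. Sh2d6 and Fes, a tyrosine kinase of myeloid cells, had 3 Control-only retained introns each, the most in that direction. Fes had 3, 0 and 3 retained introns in LPS, against 9, 9 and 3 in Control, so its groups touched.

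No gene passed the test for exon ends. Of 3277 genes tested none rose and none fell (0% each) with limma, while 175 (5.34%) had an unadjusted p under 0.05. With no filter on low values 13 genes passed, with the fit limited to LPS and Control libraries 6, and without trend and robust moderation 13. Slfn4 came nearest, with 9, 4 and 9 exon ends in LPS, against 0, 0 and 0 in Control (limma, adjusted p = 0.103), and 4 of them were LPS only. The 4 are both positions of a single shift of 20 nt, each in an exact and an approximate form. Ripk2, the kinase of NOD receptors, had 2, 2 and 2 in LPS, against 0, 0 and 0 in Control (limma, adjusted p = 0.222), both positions of a single shift of 20 nt. Srsf5, an SR splicing factor, had 4, 4 and 4 in LPS, against 0, 2 and 0 in Control (limma, adjusted p = 0.178). All 3 genes had LPS above Control in every library.

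In the other direction Pcmtd2 had 0, 0 and 0 exon ends in LPS, against 9, 5 and 5 in Control (limma, adjusted p = 0.222), and 5 were Control only. The 5 belong to the same shift of 4 nt and include exact and approximate forms. Galk2, a galactokinase family gene, had 0, 0 and 0 in LPS, against 4, 6 and 6 in Control (limma, adjusted p = 0.222). Tmem258, a subunit of the oligosaccharyltransferase, had 0, 0 and 0 in LPS, against 4, 4 and 4 in Control (limma, adjusted p = 0.452). LPS-only ends lay a median of 56 nt and Control-only ends 93 nt from the partner end, against 60 nt over all exon ends. The shifted end was the acceptor in 58.0% of the LPS-only, 52.9% of the Control-only and 58.6% of all exon ends.

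The type I interferon response list, described above for first exons, had set-apart events in 1 direction in the other classes. Of its 56 genes, 45 were listed in all 6 libraries. Its members were chosen with earlier results of these data known, so the shared direction is not an independent result. Antiviral genes outside the list were not counted, and they need not share this direction. Oas1b, an antiviral gene outside the list chosen after its values were seen, had Control-only events in 3 classes and an LPS-only last exon. Over all 5 classes in 1 count, 30 of 11671 genes tested rose (0.257%) and 5 fell (0.0428%), and of 51 list members tested 7 rose and none fell (limma, Benjamini-Hochberg). Of the 7, Ifit1bl1, Irf7 and Zbp1 kept their call whichever library was left out. Ifit3b lost it without LPS 2 (0.0528) and Mx2 without Control 3 (0.053). Oasl2 lost it without any of 5 libraries, all but LPS 1 (up to 0.157), and Slfn4 without any LPS library or Control 3 (up to 0.103). Oasl2 and Slfn4 also lost it with the forms of an event counted once (0.0585 and 0.0914). With only LPS and Control in the fit, all 7 were lost. For last exons 6 genes (Dhx58, Gbp5, Ifi206, Ifit1bl1, Ifit3b and Mx1) had an LPS-only event and none a Control-only one, against 169 and 128 of all 13658 genes. None of 32 tested for last exons passed, where 0.198% of all genes tested rose and 0.132% fell. For skipped exons 9 genes (Dhx58, Gbp3, Ifi44, Ifit3, Irf7, Parp9, Slfn4, Slfn5 and Trim30a) had an LPS-only event and none a Control-only one, against 85 and 154 of all 13658 genes. Of 22 tested for skipped exons 3 rose (Dhx58, Ifi44 and Irf7), against 0.0969% of all genes tested, and none fell. The median difference for skipped exons was 0.72, against 0 over all genes. Over the list, skipped exons summed to 59, 60 and 47 in the LPS libraries, against 22, 29 and 15 in the Control libraries. Exon ends summed to 46, 30 and 44 in LPS, against 18, 20 and 14 in Control. Event number can move with how much of a gene was sequenced, and the part of expression level in these sums was not tested.

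**Figure D5:**
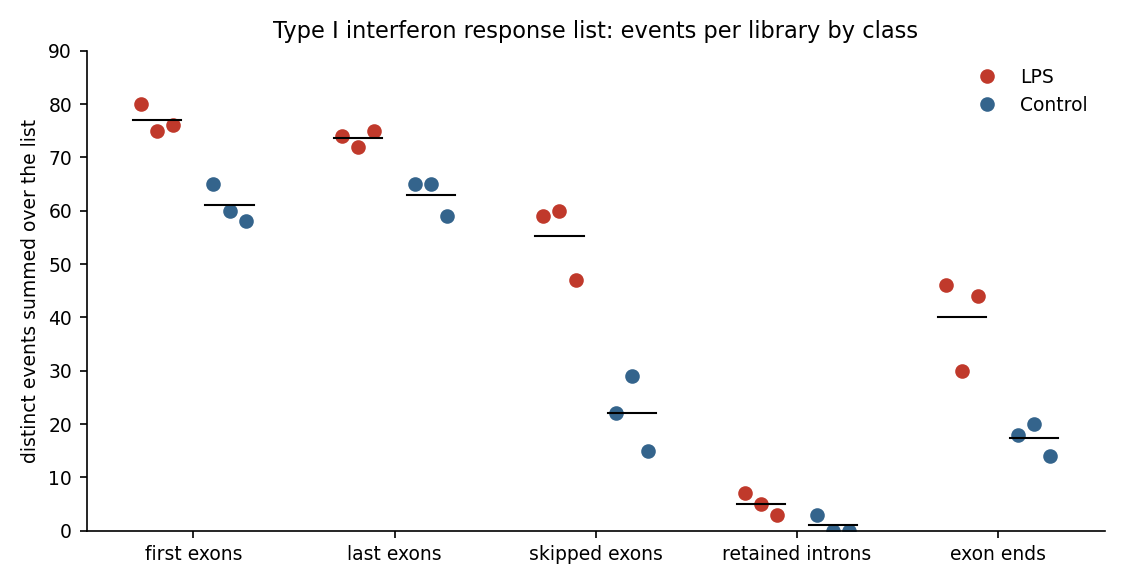
Distinct events summed over the 56 genes of the type I interferon response list in each library (y axis), by class, with LPS left of Control and points in the order of the replicates. Bars are means of 3 libraries. The LPS points lie above the Control points in first exons, last exons, skipped exons and exon ends, and in retained introns the lowest LPS library equals the highest Control library at 3.

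The other lists, also chosen with earlier results known, had fewer members past the test. Over all 5 classes in 1 count, 2 of 26 NF-kB cytokines and chemokines rose (Il12b and Il36a), 2 of 22 LPS-induced enzymes and acute-phase genes (Mmp3 and Serpina3f) and 1 of 20 MHC class I and peptide loading genes (H2-M2), against 0.257% of all genes tested, and none fell. For first exons, 2 of 22 NF-kB cytokines and chemokines rose (Csf3 and Il36a), against 0.17% of all genes. Csf3 had 2, 2 and 2 first exons in LPS, against 1, 0 and 0 in Control (limma, adjusted p = 0.0138), lost without any LPS library, Control 2 or Control 3 (up to 0.194). Of the LPS-induced enzymes and acute-phase genes, 1 of 17 rose in first exons (Mmp3), against 0.17% of all genes, and the only 1 tested for retained introns (Cfb) rose, against 0.51% of all genes. Of the MHC class I and peptide loading genes, 1 of 7 rose in last exons (H2-M2), against 0.198% of all genes. None of the 44 Toll-like receptor and NF-kB signalling genes passed in any class, though Irak2 and Tnfaip3 had an LPS-only first exon and Ripk2 LPS-only exon ends. Of the splicing factors, 1 of 26 tested fell in retained introns (Clk4), against 0.893% of all genes, and none passed in the other classes. None of the 32 ferroptosis and iron genes, the 29 NAD genes or the 34 cell cycle genes passed in any class. Over all 5 classes in 1 count, 40 Toll-like receptor and NF-kB signalling, 26 ferroptosis, 21 NAD and 28 cell cycle genes were tested. With 0.257% of all genes rising and 0.0428% falling, lists of this size can hold none without differing from all genes.

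Event numbers of several textbook LPS-induced genes overlapped between the groups. Il1b, Ptgs2 and Ccl5 had 2 events and Cxcl10 had 3 in every library of both groups. Tnf had 2, 2 and 3 events in LPS, against 2, 2 and 2 in Control. Nos2, the inducible nitric oxide synthase, had 2, 6 and 4 in LPS, against 2, 2 and 2 in Control. Saa3 had 3, 4 and 3 in LPS, against 3, 3 and 3 in Control. A gene with 1 first and 1 last exon keeps 2 events at any level of expression, so these counts give no measure of induction.

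For first exons and skipped exons, libraries of a group shared slightly more events than libraries of different groups, and in the other 3 classes the ranges overlapped. For first exons pairs within a group shared 58.4% to 59.5% of their events and pairs between groups 57.0% to 57.7%. For skipped exons the ranges were 45.4% to 47.8% within a group and 43.6% to 45.3% between groups. They were 59.5% to 60.8% within and 58.0% to 59.7% between groups for last exons, 35.9% to 38.9% within and 33.3% to 36.4% between for retained introns, and 43.9% to 46.5% within and 43.0% to 45.0% between for exon ends. Of the skipped exons of a group 31.4% recurred in all 3 LPS libraries and 32.7% in all 3 Control libraries. Of the 106022 events in the 6 libraries, 45446 were in a single library.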

How the data were processed

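The 12 files deposited by the authors list transcript events of each library, 1 per line, with a type, a gene and positions, per the file headers. They hold no count, level or depth, so the precision that depth would give is unknown. The program and mouse assembly behind them are not given in the sources used here. GRCm38, BWA 0.7.12, MACS2 2.1.0 and HOMER are named, with no role, per the submitters' processing notes. The positions in the files did not match GRCm38 and are not printed.

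Lines for the reference side of an event and repeated lines were dropped. First and last exons were matched by gene and splice site, other events by gene, start and end. Distinct events per gene were tested with limma 3.58.1 in R 4.3.3 on log2(events + 1), with trend and robust moderation, 4 group means over 12 libraries, genes with at least 1 event in 3 libraries, and an adjusted p under 0.05 after Benjamini-Hochberg adjustment. The fit was checked on simulated data. Library totals were compared by exact permutation, two-sided. Tables were handled in Python 3.11.15 with pandas 2.3.3. Exons were matched to GENCODE M21 by gene structure.

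Genes were named when they had up to the 10 largest called differences per class and direction with groups apart, up to 5 genes per class and direction with the most set-apart events, up to 6 set-apart members of a gene list, or were among anchor genes. The members and lists were chosen with earlier results of these data known. Libraries were not treated as paired by replicate number in the main fit. Alternatives were the filter, the pseudocount, scaling by the library total, only LPS and Control in the fit, no trend or robust moderation, a replicate block, forms counted together, and each library left out. Results of some genes counted here are not reported by name.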

Additional observations from a re-analysis of the deposited data

How the results depend on the processing

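The number of genes past the limma test depended on the settings in each class. Requiring 3 events in 3 libraries left 11 genes for all events together (35 otherwise), 5 for first exons (21), 1 for last exons (20), 4 for skipped exons (8) and 5 for retained introns (11). With only LPS and Control in the fit, 1 gene passed for all events together, 46 for first exons, 1 for retained introns and 6 for exon ends (0 otherwise). Without trend and robust moderation, 47 passed for first exons, 43 for last exons, 25 for skipped exons and 13 for exon ends, while 10 of the 21 first-exon calls and 18 of the 20 last-exon calls were lost. With no filter, 5 passed for skipped exons and 13 for exon ends. Counting exact and approximate forms together left 5 for skipped exons and 2 for retained introns. The cause of these changes was not tested. Same-numbered LPS and Control libraries did not deviate together (correlations of 0.0025, 0.00099 and -0.012 over 10872 genes). The labels do not say whether they were handled as pairs, which these correlations cannot exclude. A replicate block left 3 genes for skipped exons and 0 for retained introns. No direction reversed under any of these settings.

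Leaving out 1 library gave 32 to 55 genes for all events together, 6 to 26 for first exons, 11 to 23 for last exons, 1 to 6 for skipped exons, 0 to 5 for retained introns and 0 to 1 for exon ends. Set-apart counts rise by construction when fewer libraries must share an event. With 1 library left out, or with 2 left out as chosen after seeing the data, they were 169 to 288 genes, 884 to 1573 first exons, 599 to 1120 last exons, 574 to 1072 skipped exons, 76 to 154 retained introns and 437 to 816 exon ends. With 1 library left out, genes set apart ranged up to 187, first exons to 925, last exons to 674, skipped exons to 699, retained introns to 98 and exon ends to 498. LPS minus Control in library totals ranged over -4.83 to 163 genes, -246 to 368 first exons, -156 to 152 last exons, -1055 to -198 skipped exons, -61.7 to -3.67 retained introns and -611 to -73.8 exon ends. Each lowest total difference was without Control 3 and each highest without Control 1. Dropping events on the strand opposite to the annotated gene was also chosen after seeing the data. The calls of Apol9a, Apol9b and Ntng2 held for first exons, and of Ntng2 for last and skipped exons, under every setting run. Those of Il36a and Urah for first exons and H2-M2 for last exons held wherever they were tested, and the filter of 3 events in 3 libraries left these 3 genes out. Depth, which could set how many events a library lists, is not in the files.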
